A study of Mus musculus with 15 samples.

Results

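The chaperone and heat shock protein genes were described across 15 single cells of mouse inguinal fat. They were taken by symbol from the deposited table: heat shock proteins (Hsp), J-domain proteins (Dnaj), subunits of the cytosolic chaperonin (Cct), Bag co-chaperones, protein disulfide isomerases (Pdia), calreticulin and calnexin. This rule matched 68 of 8446 rows and used no measured value. By role, 9 were stress-inducible, 16 constitutive and cytosolic, 7 were chaperonin subunits, 17 belonged to the endoplasmic reticulum (ER) and 9 to mitochondria. The other 10 comprised 7 further J-domain genes, the small heat shock genes Hspb2 and Hspb6, and Hspb11, which carries a heat shock name but encodes a subunit of the intraflagellar transport machinery of cilia.

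The cells came from adult C57BL/6 mice carrying Prrx1-CreERT and a Tomato reporter, given tamoxifen at 2 mg per 30 g body weight daily for 3 days. CreERT is a Cre recombinase that enters the nucleus on tamoxifen, so Tomato marks cells in which Prrx1 drove Cre at that time, and their descendants. The tissue was digested in collagenase II (2 mg/ml, 1 h, 37 °C), and cells were sorted for Tomato and then picked singly under a microscope. All 15 cells share this genotype and treatment and form 1 group with no untreated cells, and no label names an animal. The group is therefore treated as 1 sample, without p-values.

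Chaperones bind unfolded protein and help it reach or keep its native shape. Hsp70 proteins bind short exposed stretches in a cycle driven by ATP, J-domain proteins deliver clients and start ATP hydrolysis, and Bag and Hsp110 proteins release the nucleotide. Hsp90 acts later on signalling proteins, the CCT chaperonin encloses actin and tubulin as they fold, and small heat shock proteins hold aggregating protein without ATP. Heat and other protein damage activate the transcription factor HSF1, which binds heat shock elements, while unfolded protein in the ER acts through ATF6, XBP1 and ATF4, the first of which binds ER stress elements. Fibroblasts of fat secrete collagen, whose folding takes place in the ER.

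Values are log2(FPKM + 1), where FPKM is fragments per length of transcript and library size, and a gene was counted as detected in a cell at 1 FPKM or more. The authors' columns had been brought to a common distribution, so each cell holds 4369 rows at 1 FPKM or more by construction and a value places a gene within its own cell. Between 930 (cell 8) and 1974 (cell 11) rows stood at a cell's lowest value, with a median of 1385, and read depth is unknown. The stromal markers fit the source tissue: all 8 had a row, 6 were detected in all 15 cells, and the median of their medians was 9.06. Cells 5 and 13 stood apart in their mural genes (pericytes and smooth muscle). Their means over 5 such genes were 8.72 and 5.83, where the other cells reached at most 2.37. In cell 5 all 5 mural genes were high, but in cell 13 Higd1b (10.68), Kcnj8 (9.43) and Rgs5 (6.90) were high while Abcc9 stood at 1.68 and the smooth muscle actin gene Acta2 at 0.45. The endothelial list gene Esam was likewise highest in these cells, at 10.90 in cell 13 and 7.83 in cell 5. Tek, the other endothelial gene with a row, stood at 0.06 and 0.15 there and was detected only in cell 1, at 5.04. Cell 13 also held the mitosis genes Cdk1 at 11.34 and Birc5 at 10.04, and Pdgfra at 0.20. The other cells were not uniform. The mean of the stromal markers was lowest in cell 13 at 5.61, then in cell 12 at 6.26 and cell 5 at 6.69. In cell 12 Cd34 was at its lowest (2.05), Acta2 stood at 5.23, and the mature adipocyte gene Pnpla2 was at its highest. The immune gene Csf1r reached 6.39 in cell 2, 3.81 in cell 1 and 3.35 in cell 7. What these values say of cell type was not tested.

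Chaperone genes were detected in more cells than the table's rows in general. Of the 68 genes, 20 (29.4%) were detected in all 15 cells, where 12.1% of all rows were. In 8 or more cells 50 genes (73.5%) were detected, against 46.8% of rows, and 10 reached 5 FPKM in every cell, where 7.03% of rows did. No chaperone gene went undetected in all cells, as 1.01% of rows did, and 8 were detected in only 3 or 4 cells. The median of the 68 gene medians was 4.26, and that of all rows 0.79. A cell detected between 42 (cells 11 and 15) and 54 (cell 13) of the 68 genes. Summed on the linear scale, they took 0.608% (cell 6) to 1.03% (cell 13) of a cell's FPKM, with a median of 0.878%.

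**Figure D1:**
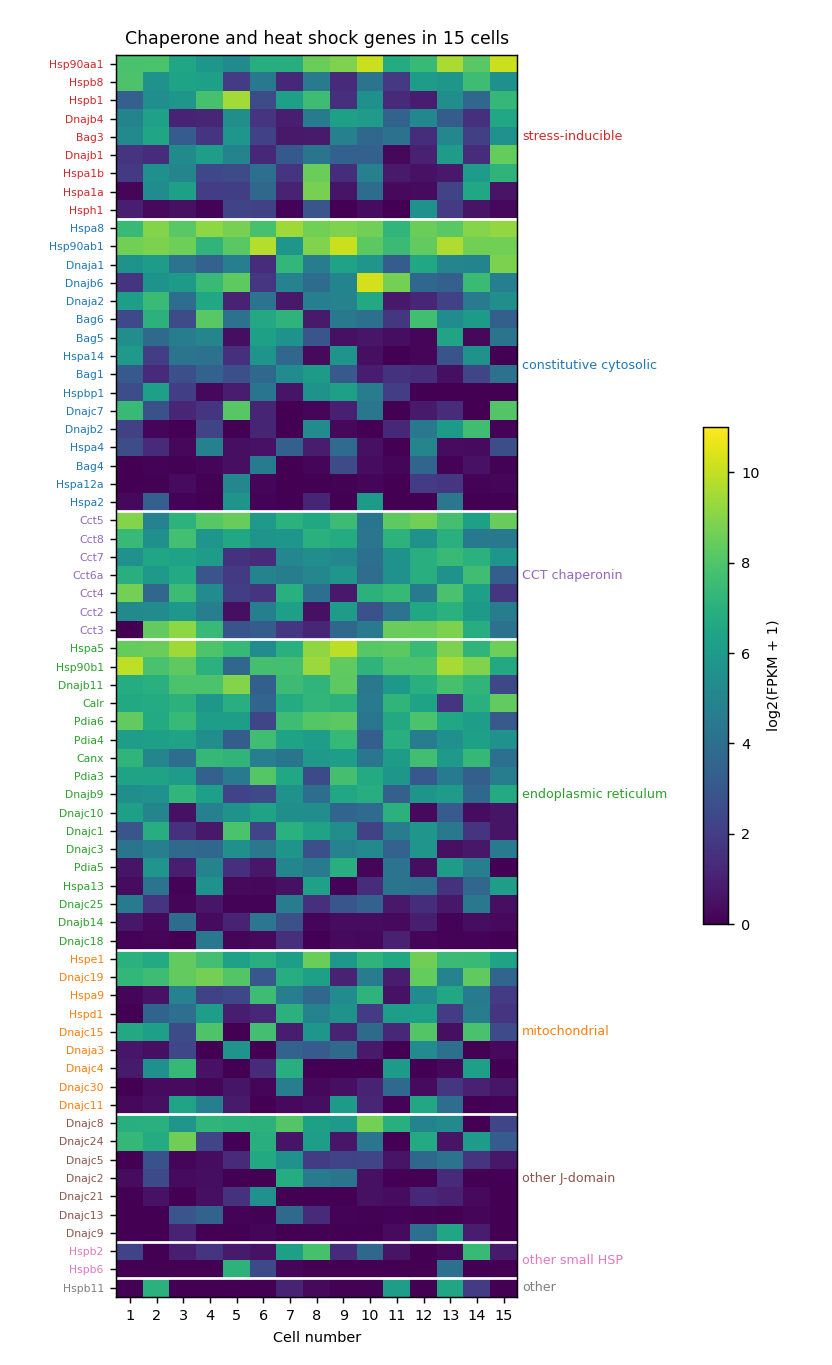
Level of each of the 68 genes (rows, grouped by role) in each of the 15 cells (columns) as log2(FPKM + 1), brighter for higher. The bright rows that run unbroken across the cells include Hspa8, Hsp90ab1, Hspa5 and Hspe1, while most of the other rows are broken by dark cells near 0.

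By the median of gene medians the ER genes and the CCT subunits stood highest as classes, and the stress-inducible genes lower. The median of gene medians was 5.59 for the 17 ER genes, 5.57 for the 7 CCT genes, 3.82 for the mitochondrial, 3.72 for the inducible, 2.78 for the constitutive cytosolic and 0.38 for the further J-domain genes. Detection in all 15 cells followed another order, with 9 of 17 ER genes, 4 of 7 CCT genes, 4 of 16 constitutive genes, 2 of 9 inducible genes and 1 of 9 mitochondrial genes. So did the share of a cell's summed FPKM, which also depends on class size. Its median over cells was 0.232% for constitutive, 0.228% for ER, 0.101% for CCT, 0.0980% for inducible and 0.0718% for mitochondrial genes. The labels name a SMART-Seq v4 3' DE kit, whereas FPKM divides by transcript length, and how this bears on comparisons between genes of different length was not tested. No single gene led in every cell. Hspa8 was the highest chaperone gene in 4 cells, Hsp90ab1 in 3, Dnajb6 and Hsp90b1 in 2 each, and Cct5, Hsp90aa1, Hspa5 and Hspb1 in 1 cell each.

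**Figure D2:**
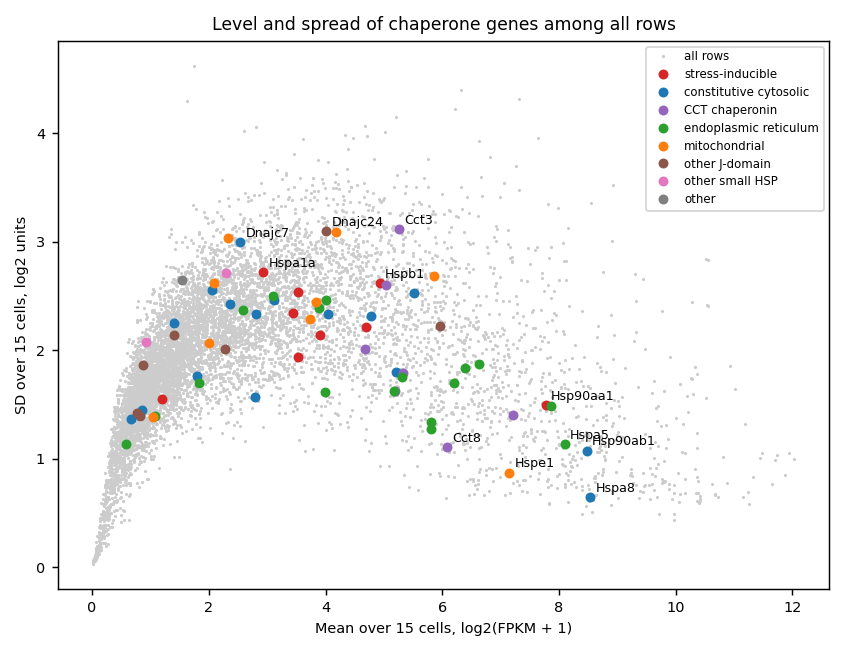
Standard deviation over the 15 cells against mean level for each of the 68 genes, coloured by role, both on the log2(FPKM + 1) scale. Hspa8 and Hspe1 lie low for their level with standard deviations of 0.65 and 0.87, and Cct3 and Dnajc24 lie high with 3.12 and 3.10.

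The stress-inducible genes ranged from detection in all 15 cells (Hsp90aa1 and Hspb8) to detection in 5 (Hsph1). Hsp90aa1, the inducible cytosolic Hsp90, ran from 5.25 (cell 5) through a median of 7.83 to 10.14 (cell 15), with 10.12 in cell 10 and 9.58 in cell 13. It was thus well above the detection level in every cell. Hspb8, a small heat shock protein that works with Bag3 in the clearance of damaged protein, was also detected in all 15, from 1.22 (cell 7) through 5.54 to 7.91 (cell 1). Bag3, which links Hsp70 to autophagy, was detected in 13 cells, from 0.74 (cell 7) through 3.72 to 6.52 (cell 2). The partners were both above 5 in cells 1, 2, 13 and 15 and both low in cell 7, but in cell 14 Hspb8 stood at 7.59 with Bag3 at 2.07, and in cell 9 at 1.29 with Bag3 at 4.77.

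Hspb1, the small heat shock protein Hsp25 of mouse, was detected in 14 cells and ran from 0.89 (cell 12) through 5.45 to 9.48 (cell 5). Its highest cell is one of the 2 with high mural means and Esam, and the part of cell type in this value was not tested. The other of these, cell 13, stood at 5.45, the median. Dnajb1, the main J-domain partner of inducible Hsp70, was detected in 14 cells, from 0.23 (cell 11) through 3.40 to 8.39 (cell 15). Its relative Dnajb4 ran from 0.94 (cell 7) through 4.54 to 6.62 (cell 15). Hsph1, the Hsp110 that recharges Hsp70, was detected in 5 cells only, with a median of 0.48 and 5.58 in cell 12 as its highest value, and no other cell exceeded 2.92.

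The inducible Hsp70 genes Hspa1a and Hspa1b were high in some cells and near the detection level in others. Hspa1a was detected in 66.7% of cells (exact binomial 95% interval 38.4% to 88.2%, counting error only). It was at 5.35 or more in cells 2, 3, 8 and 14, at 3.91 and 3.71 in cells 10 and 6, and at 2.25 or below in the other 9 cells. Hspa1b reached 5.01 or more in the same 4 cells and also in cell 15, where it stood at 7.17 and Hspa1a at 0.58. Over the 15 cells the pair had a Spearman correlation of 0.66 and a Pearson correlation of 0.76, or 0.57 without cells 8 and 14, and Hspa1b was the higher in 11 cells. The constitutive Hsp70 gene Hspa8 lay above Hspa1b in every cell, by 0.12 in cell 8 and by 7.99 in cell 12. Hspa1a lay above Hspa8 in cell 8, at 8.75 against 8.65, and below it in the other cells.

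The copies lie side by side on mouse chromosome 17, and how far their reads can be told apart depends on where in the transcript they fall. Their longest transcripts were 93.6% identical over the aligned positions. Of the 50-base windows of Hspa1a, 1716 of 2918 (58.8%) occurred exactly in Hspa1b, but 0 of the 451 windows in the last 500 bases did. How the authors counted reads that match both is not given in the sources used here, so the separate levels remain uncertain. Their promoters are printed because they are nearly the same while the levels in cell 15 are not: they differed at 4 of 300 positions (98.7% identical). Each runs 5′ to 3′ from 250 bases before the start site to 50 after it (RefSeq, GRCm38.p6), with the match to a heat shock element of 2 units in capitals.
Hspa1a (chr17:34972107-34972406, strand −): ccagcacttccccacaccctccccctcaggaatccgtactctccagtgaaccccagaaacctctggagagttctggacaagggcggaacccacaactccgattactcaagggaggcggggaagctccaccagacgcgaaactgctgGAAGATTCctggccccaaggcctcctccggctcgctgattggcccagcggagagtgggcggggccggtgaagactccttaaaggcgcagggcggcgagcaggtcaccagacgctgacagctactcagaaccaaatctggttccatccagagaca
Hspa1b (chr17:34959189-34959488, strand −): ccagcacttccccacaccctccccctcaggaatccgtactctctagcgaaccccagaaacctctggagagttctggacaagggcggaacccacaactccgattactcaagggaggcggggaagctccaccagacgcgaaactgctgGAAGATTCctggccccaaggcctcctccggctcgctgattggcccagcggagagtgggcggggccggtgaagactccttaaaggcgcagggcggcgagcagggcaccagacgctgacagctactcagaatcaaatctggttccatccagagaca
The match is the same GAAGATTC, 104 bases before the start site, in both.

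A heat shock element was searched for as inverted GAA units, GAANNTTC or TTCNNGAA, which read the same on both strands, in promoters of 300 bases. Of the 68 genes 55 had a promoter in the RefSeq table, with 70 promoters between them. A match was present in 7 of the 8 inducible genes with an entry, 2 of 13 constitutive, 3 of 6 CCT, 1 of 15 ER and 2 of 6 mitochondrial genes, against 17.0% of 27025 genes. Dnajb1 was the inducible gene without one in this window, and Hsp90aa1 was the inducible gene without an entry. With 3 alternating units, each 2 bases from the next, 4 of the 55 genes matched (Hsph1, Dnajb6, Hspd1 and Hspe1), or 7.27% against 0.662% of genes. Matches of other inducible genes are printed below to show the bases between and around the units, which the search pattern fixes and which are in capitals. Those of Hspb8, Hsph1 and Bag3 begin after the start site.
Hspb1 (chr5:135887797-135887814, strand +): caagaGAAgtTTCcagat
Hspb8 (chr5:116422850-116422867, strand −): caggaGAAgtTTCtaggc
Dnajb4 (chr3:152193847-152193864, strand −): cgctgTTCtaGAAagtac
Hsph1 (chr5:149636283-149636300, strand −): ttctgGAAagTTCtcctc
Bag3 (chr7:128523620-128523632, strand +): gaccaGAAgtTTC
The inducible genes that carry a match differed widely in level here, from a median of 0.48 for Hsph1 to 5.54 for Hspb8. A match describes the letters and does not show that a factor was bound.

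**Figure D3:**
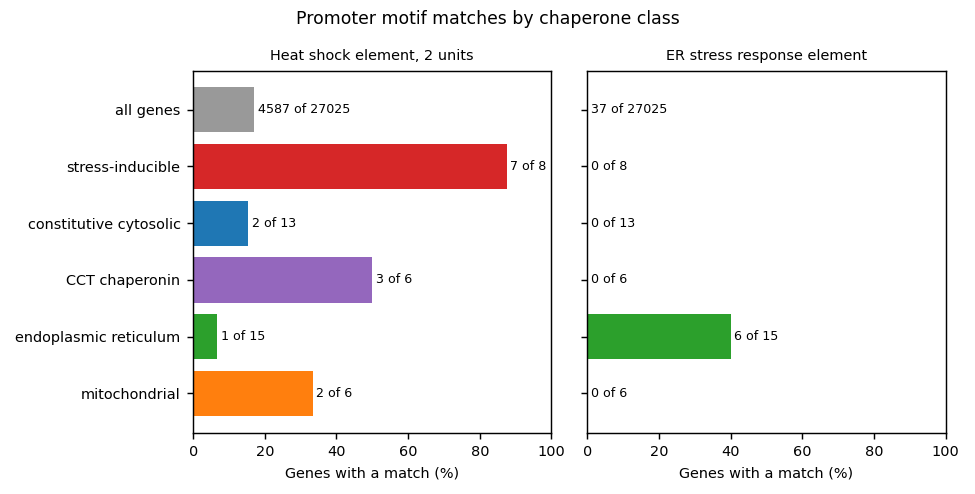
Percent of genes with a promoter match, by role and for all genes with a promoter, for the heat shock element of 2 units and for the ER stress element. The inducible bar for the heat shock element (87.5%) and the ER bar for the ER stress element (40.0%) stand far above those of all genes (17.0% and 0.137%).

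Taken over the class, the inducible genes were highest in cells 15 and 8 and lowest in cells 11 and 7. The class mean ran from 2.09 in cell 11 and 2.42 in cell 7 through a median of 4.18 to 5.60 in cell 8 and 5.73 in cell 15. At 5 FPKM or more, cells 8 and 10 held 8 of the 9 genes and cells 7 and 11 held 3. By construction each cell held 3417 of the 8446 rows at that level. The high cells did not rest on the same genes. Cell 15 had the highest Dnajb1, Dnajb4 and Hsp90aa1, whereas cell 8 had the highest Hspa1a and Hspa1b, with Bag3 at 0.78. The share of a cell's summed FPKM ran from 0.0235% (cell 11) through 0.0980% to 0.329% (cell 15). Cell 11 is also the cell with the most rows at its lowest value, and the part of this in its low mean was not tested.

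**Figure D4:**
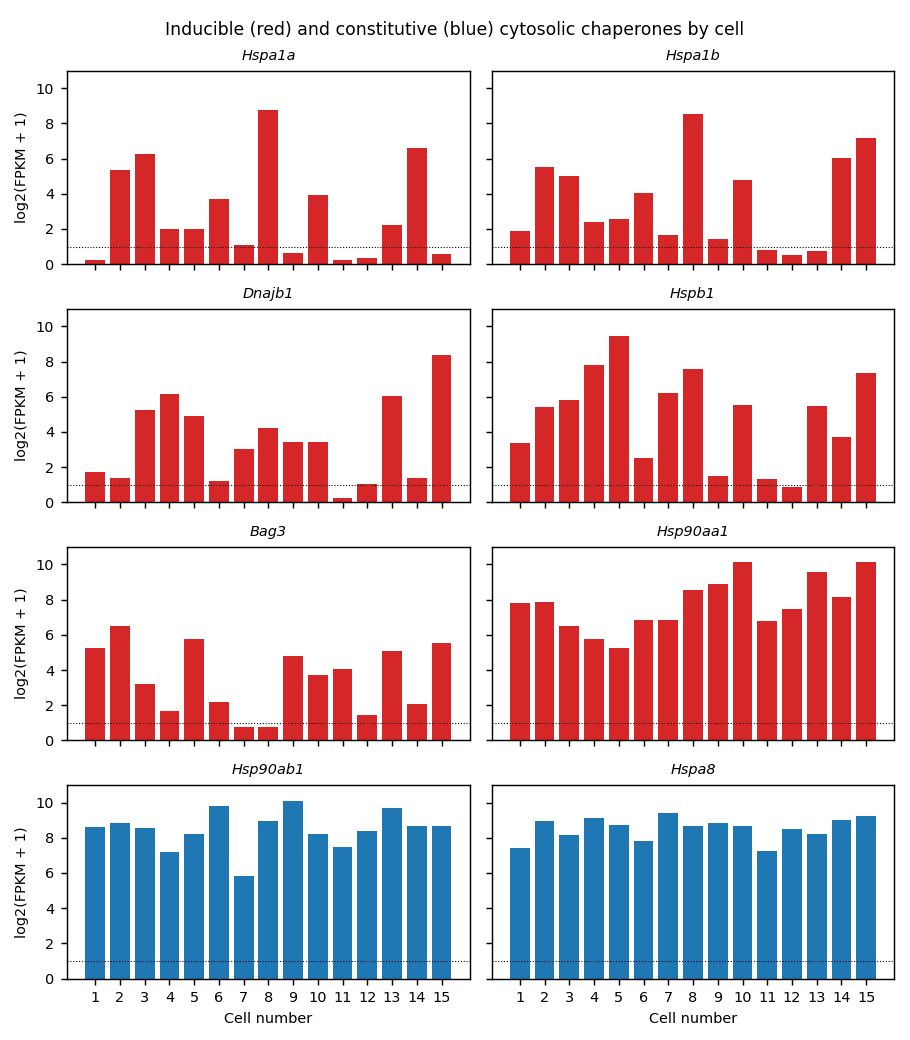
Levels of stress-inducible (red) and constitutive (blue) cytosolic chaperone genes in cells 1 to 15 as log2(FPKM + 1). The inducible genes shown are Hspa1a, Hspa1b, Dnajb1, Hspb1, Bag3 and Hsp90aa1, and the constitutive genes are Hsp90ab1 and Hspa8. Hspa1a and Hspa1b are both high in cells 2, 3, 8 and 14 and part in cell 15, where Hspa1b stands at 7.17 and Hspa1a at 0.58.

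Immediate early genes, transcription factors and regulators switched on within minutes of a stimulus, stood higher than the inducible chaperones. All 13 had a row, 10 were detected in all 15 cells, where 12.1% of all rows were, and the median of their medians was 7.09. Fos, a partner in the AP-1 factor, led the list and ran from 5.87 (cell 4) through 10.75 to 12.27 (cells 14 and 15), ahead of the phosphatase gene Dusp1 with a median of 8.23. The list mean ran from 3.26 (cell 11) to 8.97 (cell 9). Over the 15 cells it had a Spearman correlation of 0.51 and a Pearson correlation of 0.60 with the inducible mean. Without cells 7 and 11 the Spearman correlation was 0.27 and the Pearson correlation 0.34. The cells share their digestion and library preparation, and 0.51 was the highest Spearman value over the 15 cells among 44 pairs of lists. Cell 9 departed from this relation, with the highest immediate early mean but an inducible mean of 3.13, where the median cell had 4.18. In it Hspa1a (0.64), Hspa1b (1.42), Hspb1 (1.47), Hspb8 (1.29) and Hsph1 (0.00) lay below their medians. Hsp90aa1 (8.87), Dnajb4 (6.26), Bag3 (4.77) and Dnajb1 (3.42) lay above theirs. Among themselves the immediate early genes had a mean pairwise Spearman correlation of 0.57, and the inducible chaperones 0.14. Of the factors that act on these genes, Hsf1 was detected in 4 cells, highest in cell 5 at 6.47, and Hsf2 in 3, highest in cell 10 at 5.64.

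The constitutive cytosolic class joined the steadiest chaperone gene to some of the rarest. Hspa8, the housekeeping Hsp70 that also strips clathrin from vesicles, ran from 7.25 (cell 11) through 8.66 to 9.43 (cell 7). Its standard deviation of 0.65 compares with a median of 1.25 over the 275 rows within 1 log2 unit of its mean. Hsp90ab1, the constitutive Hsp90, ran from 5.81 (cell 7) through 8.64 to 10.10 (cell 9). Cell 7 thus combined the highest Hspa8 with the lowest Hsp90ab1. Hsp90ab1 exceeded its inducible counterpart Hsp90aa1 in 12 of 15 cells, the exceptions being cells 7, 10 and 15, and the median difference was 0.80. No window of 50 bases was shared between the longest transcripts of these 2 genes, unlike in the Hspa1 pair.

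The J-domain partners of Hspa8 varied more. Dnaja1 was detected in all 15 cells, from 1.41 (cell 6) through 5.01 to 8.81 (cell 15), and Dnaja2 in 13, with a median of 4.59. Dnaja1 shares 608 bases of exon with Smu1 on the opposite strand. Dnajb6, which holds back the aggregation of polyglutamine protein, ran from 1.70 (cell 1) through 4.97 to 10.30 (cell 10). With 8.69 in cell 11 it was the highest chaperone gene of both these cells. Dnajc7, which bridges Hsp70 and Hsp90, had a median of 1.19 but stood at 8.14 in cell 5, 8.07 in cell 15 and 7.44 in cell 1. It overlaps exons of Cnp and Nkiras2 on the opposite strand, and whether the counting used strand is not given in the sources used here. Dnajb2, a J-domain protein that hands clients to the proteasome, had a median of 1.14 and was highest at 7.64 in cell 14 and 6.01 in cell 13.

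Among the Bag and nucleotide exchange genes, Bag6, which guards membrane proteins on their way to the ER, was detected in 14 cells, with a median of 4.46 and 8.20 in cell 4. Bag1 was detected in 13 cells, Bag5 in 9, Hspbp1 in 8 and Hspa4, an Hsp110 protein, in 7. Hspa14, a ribosome-associated Hsp70, was detected in 10 cells, but the identifier of its row carries another symbol, Gm45902, in GENCODE M21. Hspa2, best known from the testis, was detected in 5 cells, of which cell 10 (6.00) and cell 5 (5.71) were highest, and Bag4 and Hspa12a were detected in 3 each. The class mean was 2.16 in cell 11 and lay between 3.05 (cell 3) and 4.07 (cell 2) in the other 14 cells, with a median of 3.69. Without cell 11 its range over the cells was 1.02, against 1.91 with it.

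Among the co-chaperones outside the name rule, all 21 had a row, 19 were detected in 8 or more cells and 3 in all 15, and the median of their medians was 4.52. Over all rows 46.8% were detected in 8 or more cells and 12.1% in all 15, and the 3 of 21 lie near the latter share. Pfdn5, a subunit of the prefoldin that hands actin and tubulin to CCT, had a median of 8.66, and Cryab, the small heat shock protein alpha B-crystallin, one of 7.54. Both were near 0 in cell 13, at 0.31 and 0.40, and detected in the other 14 cells.

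All 7 CCT subunits with a row were detected in at least 13 cells. Cct5 was the highest, from 4.29 (cell 10) through 7.52 to 8.96 (cell 1). Cct8 was the steadiest, from 4.33 (cell 10) through 5.79 to 7.73 (cell 3), with a standard deviation of 1.11 against 2.08 for rows of like level. Cct7 and Cct6a, with medians of 5.61 and 5.57, were likewise detected in every cell. Cct4 ran from 0.77 (cell 9) through 5.30 to 8.69 (cell 1), and Cct2 from 0.47 (cell 5) through 5.29 to 7.01 (cell 13). Cct3 was the least even, from 0.00 (cell 1) through 4.48 to 9.13 (cell 3).

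CCT works as a double ring with each subunit at a fixed place, but within a cell the levels of its subunits were unequal. The gap between the highest and the lowest of the 7 ran from 3.18 in cell 14 through 4.72 to 8.96 in cell 1, where Cct5 was at 8.96 and Cct3 at 0.00. Of the 15 cells 11 detected all 7 subunits and 4 detected 6. The class mean ran from 3.41 (cell 5) through 5.73 to 7.22 (cell 3) and 7.34 (cell 13), and the mitosis genes named above were also highest in cell 13. Their part in its value was not tested, and cell 3, next to it, had Cdk1 at 3.42. The CCT genes had a mean pairwise Spearman correlation of 0.26, the highest of the chaperone classes, against 0.00 for 7425 rows detected in 3 or more cells. Tcp1, the remaining subunit gene, which the name rule does not take, was detected in 13 cells with a median of 5.73, but stood at 1.65 in cell 3 and 0.37 in cell 1.

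**Figure D5:**
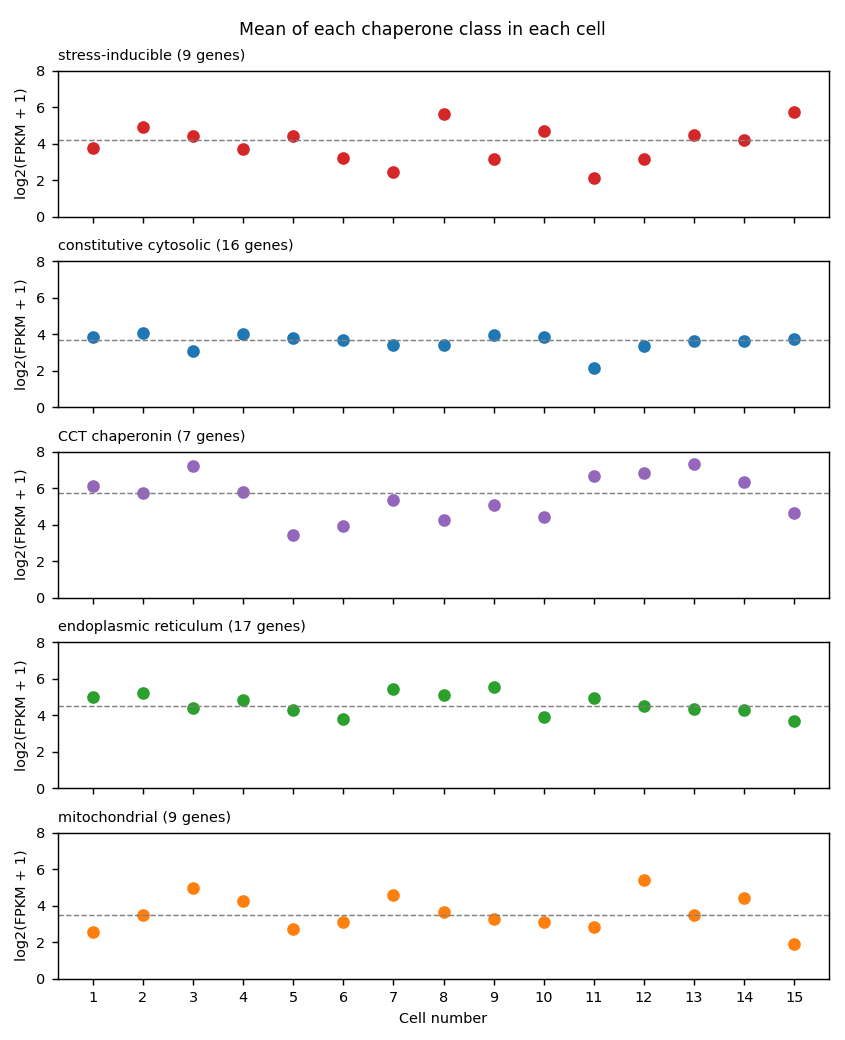
Mean level of each class in each of the 15 cells as log2(FPKM + 1), 1 point per cell. The constitutive class spans 2.16 to 4.07 and the ER class 3.68 to 5.54, and the inducible (2.09 to 5.73) and CCT (3.41 to 7.34) classes spread wider.

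Of the 17 ER chaperone genes, 9 were detected in all 15 cells, and most varied less than rows of like level. Hspa5 (BiP), the Hsp70 of the ER and the sensor that restrains the unfolded protein response, ran from 5.32 (cell 6) through 8.22 to 9.90 (cell 9). Hsp90b1 (Grp94), the Hsp90 of the ER, ran from 3.69 (cell 5) through 7.87 to 9.96 (cell 1). Of the 17 ER genes 2 (11.8%) had a standard deviation above the median of rows at like level, where 48.5% of all rows did, and for all 68 genes the share was 35.3%. Between Hspa5 and Hsp90b1 the Spearman correlation over the 15 cells was 0.44. The widest gap was in cell 5, where Hspa5 exceeded Hsp90b1 by 3.70.

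The lectin chaperones hold glycoproteins while they fold, calreticulin free in the lumen and calnexin in the membrane. Calr ran from 1.71 (cell 13) through 6.76 to 8.37 (cell 15), and Canx from 3.98 (cell 3) through 5.96 to 7.66 (cell 12). They did not move together: the Spearman correlation was −0.16, and Calr lay 4.19 below Canx in cell 13 and 4.37 above it in cell 15. Pdia3 (ERp57), the oxidoreductase that works with both, ran from 2.48 (cell 8) through 5.82 to 8.10 (cell 6). Pdia4 (ERp72) ran from 3.23 (cell 5) through 6.18 to 7.63 (cell 6), and Pdia6 (P5) from 2.32 (cell 6) through 6.63 to 8.34 (cell 1). Cell 6 therefore held the highest Pdia3 and Pdia4 together with the lowest Hspa5 and Pdia6.

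The J-domain partners of BiP were led by Dnajb11 (ERdj3), which is secreted with its clients, from 2.38 (cell 15) through 7.18 to 8.98 (cell 5). Dnajb9 (ERdj4), which aids degradation of ER proteins, ran from 2.23 (cell 5) through 5.59 to 7.24 (cell 3). Both were detected in all 15 cells, Dnajc3 and Dnajc1 in 13 and Dnajc10, a reductase, in 11. Dnajc1 had a wide range, from 0.58 (cell 15) through 4.43 to 7.90 (cell 5), and it overlaps Mllt10 on the opposite strand by 749 bases of exon. Pdia5 was detected in 9 cells, highest at 6.90 in cell 9, as was Hspa13, highest at 6.28 in cell 8. Dnajc25 was detected in 8 cells, Dnajb14 in 4 and Dnajc18 in 3.

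The ER class mean ran from 3.68 (cell 15) and 3.76 (cell 6) through 4.49 to 5.41 (cell 7) and 5.54 (cell 9). The order at both ends turns with the summary: cell 6 was lowest with the median over genes or with genes detected in 8 or more cells, and cell 7 was highest with a pseudocount of 0.1. Cell 15 had the highest Calr, with Dnajb11 at 2.38 and Pdia6 at 3.08. The inducible and ER means had a Spearman correlation of −0.37 over the cells, and a Pearson correlation of −0.37 that was −0.18 without cells 7 and 11. In linear share of FPKM the ER genes ran from 0.133% (cell 10) through 0.228% to 0.466% (cell 9).

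The ER stress element was searched for as CCAAT followed after 9 bases of any kind by CCACG on either strand, the core bound by NF-Y and ATF6. It was present in 6 of the 15 ER genes with a promoter entry (Hspa5, Hsp90b1, Calr, Canx, Pdia6 and Dnajc3) and in no gene of another class, against 37 of 27025 genes (0.137%). Hsp90b1 had 2 matches. Without the last base the core was present in 8 of 15, with Pdia3 and Pdia4 added, against 0.429% of genes. No gene held both a heat shock and an ER stress match, and the 1 ER gene with the former was Dnajc10. The promoter of Hspa5 is printed as the one best known for this element, in the same frame as above and with the match in capitals.
Hspa5 (chr2:34771840-34772139, strand +): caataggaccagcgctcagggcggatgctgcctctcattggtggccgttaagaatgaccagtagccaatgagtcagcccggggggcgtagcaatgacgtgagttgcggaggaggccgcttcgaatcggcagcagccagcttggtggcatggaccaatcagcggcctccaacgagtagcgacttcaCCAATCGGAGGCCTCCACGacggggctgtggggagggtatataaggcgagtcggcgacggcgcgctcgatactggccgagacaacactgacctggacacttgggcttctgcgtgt
The other matches are shown on the strand where they read CCAAT first, with the fixed bases in capitals and the spacer between them in lower case.
Hsp90b1 (chr10:86705634-86705660, strand −): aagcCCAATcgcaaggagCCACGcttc
Hsp90b1 (chr10:86705529-86705555, strand +): ctcaCCAATcgtgcctcaCCACGcact
Calr (chr8:84847071-84847097, strand +): tgggCCAATgagggtcgaCCACGcgtt
Canx (chr11:50325796-50325822, strand −): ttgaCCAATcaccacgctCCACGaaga
Pdia6 (chr12:17266487-17266513, strand +): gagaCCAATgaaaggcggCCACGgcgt
Dnajc3 (chr14:118937823-118937849, strand +): acaaCCAATcagcgccaaCCACGaccc
Of these 6 genes 5 were detected in all 15 cells and Dnajc3 in 13.

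The other ER stress and folding genes stood at a similar height. Of 27 listed, 22 had a row, 19 were detected in 8 or more cells and 10 in all 15, and the median of their medians was 5.13. Over all rows 46.8% were detected in 8 or more cells and 12.1% in all 15. P4hb, the founding disulfide isomerase and a subunit of the collagen hydroxylase, ran from 8.87 (cell 1) through 10.41 to 11.81 (cell 7), above every Pdia member in each cell. Ppib, the prolyl isomerase of collagen folding, had a median of 9.17. The factors Atf4 and Xbp1 had medians of 6.89 and 6.32 and were detected in all 15 cells, and Atf6 was detected in 6.

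The mitochondrial chaperonin was detected unequally. Hspe1 (Hsp10), the lid of the chamber, was detected in every cell and was steady, from 5.88 (cell 9) through 7.03 to 8.63 (cell 12), with a standard deviation of 0.87 against 1.74 for rows of like level. Hspd1 (Hsp60), the chamber itself, was detected in 13 cells, from 0.00 (cell 1) through 4.03 to 7.08 (cell 7). Hspe1 was the higher in 14 of 15 cells, with cell 7 the exception, by a median of 3.63, and their Spearman correlation was 0.13. Their longest annotated transcripts are 964 bases for Hspe1 and 2423 for Hspd1, and the part of length in the gap was not tested.

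The 2 genes stand head to head on mouse chromosome 1 with 112 bases of exon in common on opposite strands, and share 1 stretch of promoter. It is printed because the same element lies in the window of both genes: 3 overlapping matches to the 2-unit heat shock element, in capitals, form a run of 4 alternating units.
Hspe1 (chr1:55087898-55088197, strand +): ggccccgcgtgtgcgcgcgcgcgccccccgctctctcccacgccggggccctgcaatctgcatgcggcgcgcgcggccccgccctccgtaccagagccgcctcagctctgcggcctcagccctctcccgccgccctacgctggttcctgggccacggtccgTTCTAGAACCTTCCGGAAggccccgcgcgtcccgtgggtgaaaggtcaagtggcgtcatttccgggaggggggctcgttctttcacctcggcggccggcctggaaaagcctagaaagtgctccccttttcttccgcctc
The same bases on the other strand lie in the Hspd1 promoter.

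Hspa9 (mortalin), the Hsp70 that pulls proteins into the matrix, was detected in 12 cells, from 0.18 (cell 1) through 4.52 to 7.58 (cell 6). Dnajc19, its J-domain partner at the import motor, was detected in 14, from 0.85 (cell 11) through 6.86 to 8.69 (cell 4). Dnajc15, a relative of Dnajc19 in the inner membrane, was detected in 12 and swung from 0.00 (cell 5) through 3.82 to 8.05 (cell 12). Dnaja3 was detected in 7 cells, Dnajc4 and Dnajc11 in 6 and Dnajc30 in 5, with Dnajc4 at 7.37 in cell 3 and 6.94 in cell 7. The class mean ran from 1.90 (cell 15) through 3.48 to 4.96 (cell 3) and 5.43 (cell 12). With the CCT mean it had a Spearman correlation of 0.47 and a Pearson correlation of 0.49 over the 15 cells, or 0.43 without cells 5 and 6.

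The J-domain proteins with tasks outside general folding were mostly low, with Dnajc8 and Dnajc24 above the others. Dnajc8, a splicing factor, was detected in 14 cells from 0.00 (cell 14) through 6.89 to 8.69 (cell 10). Dnajc24, an enzyme partner in the diphthamide modification of elongation factor 2, had a median of 4.33 and reached 8.61 in cell 3. It stood at 3.21 in cell 15, 2.30 in cell 4 and 0.65 or below in cells 5, 7, 9, 11 and 13. Dnajc5, of secretory vesicles, was detected in 10 cells, Dnajc2, of the ribosome, in 5 (6.79 in cell 7), and Dnajc13 and Dnajc21 in 4 each. Dnajc9, a histone chaperone of dividing cells, was detected in 3, highest at 6.45 in cell 13, the cell with the highest Cdk1 and Birc5.

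The small heat shock genes outside the inducible class were detected in few cells. Hspb6 (Hsp20), known from smooth and cardiac muscle, was detected in 20.0% of cells (interval 4.33% to 48.1%). The interval holds counting error only and takes the 15 cells as alike. Hspb6 stood at 7.10, 4.07 and 2.46 in cells 5, 13 and 6, and at 0.16 or below in the other 12. The 2 highest are the 2 cells with high mural means and Esam (Acta2 was high in cell 5 and low in cell 13), and the part of cell type in this was not tested. Hspb2, a muscle small heat shock protein, was detected in 7 cells, among which cells 8 (7.81), 14 (7.45) and 7 (6.26) led. It shares 252 bases of exon with Cryab on the opposite strand and lay below Cryab in all 15 cells. Whether the 2 genes share reads was not tested. Hspb11 was detected in 5 cells, highest in cell 2 at 7.01.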

How the data were processed

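The 15 columns of 1 table were tied to cells by the number shared between column name and sample title (0 value columns unused, 18 empty unnamed ones skipped). The submitters' processing notes name TopHat2, Cufflinks and GRCm38. The authors' deposited values lie on a log2 scale of FPKM + 1. The base was inferred from the values, which end at 13.69. The columns are also quantile-normalized: sorted, they differ by at most 0.0354 above 0.2. No label records either step. No counts or depth are known, and only the number of cells limits the precision given here.

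Genes were tied to GENCODE M21 by identifier (68 of 68), 28 of them with exons overlapping another gene. Classes, lists and rule were chosen with earlier results of these data known. Named genes were 20 chosen ones and, in each class, the 2 highest by median and the 2 of largest standard deviation among those detected in 5 or more cells. Others were named after their values were seen, to account for every member. A class mean takes members detected in 2 or more cells. Alternatives changed the detection threshold, pseudocount, length division, averaging, cells and motif, and the summaries were tested on simulated data. No test between groups was possible. Promoters are RefSeq's of GRCm38.p6. Carboxy-terminal and catalytic protein motifs were planned and not analysed here. Python 3.11.15, numpy 2.4.6, pandas 2.3.3, scipy 1.17.1 and matplotlib 3.10.9 were used.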

Additional observations from a re-analysis of the deposited data

How the results depend on the processing

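Of 289 recomputed values for 19 results, 277 stayed within the spread set for them and 12 moved, 2 of these on leaving out 1 cell. At 5 FPKM 10 genes were detected in all cells instead of 20. Leaving out each cell in turn gave 20 to 22. The level of the constitutive class was 3.35 in place of 2.78 without cells 5 and 13, an alternative chosen after seeing the data. The range of class means over cells, highest minus lowest, was wider with the median over genes in place of the mean: 5.39 against 3.64 for inducible, 3.18 against 1.91 for constitutive, 5.36 against 3.93 for CCT, 3.00 against 1.86 for ER and 5.55 against 3.52 for mitochondrial genes. With a pseudocount of 0.1 the constitutive range was 2.79, the highest inducible cell was cell 8 and the highest ER cell was cell 7. The lowest ER cell was cell 6 with the median over genes, or with genes detected in 8 or more cells, and the lowest mitochondrial cell was then cell 1 or cell 11 in turn in place of cell 15. Leaving out each cell in turn, the constitutive range ran from 1.02 to 1.91, and the Spearman correlation of inducible and immediate early means from 0.39 to 0.74, the latter without cell 9. The CCT and mitochondrial correlation was 0.69 without cells 1, 11 and 14. A heat shock element of 3 units, added after seeing the data, was present in 1 inducible gene in place of 7. Where no reason is given, the cause was not tested. No paired analysis was possible because the 15 cells form 1 group. Values near 0 in single cells cannot be read as absence, since depth is unknown.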
